A study of Homo sapiens with 20 samples.

Results

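Known targets of the let-7 microRNA (miRNA) family were followed in HEK293 cells, a human embryonic kidney line, in which the miRNA-processing enzyme Dicer, the miRNA-binding protein Ago2 or the nuclear enzyme Drosha had been depleted. The 10 genes were given as a list of symbols: the RNA-binding protein genes LIN28B, IGF2BP1, IGF2BP2, IGF2BP3 and TRIM71, the chromatin protein genes HMGA2, HMGA1 and ARID3B, and the transcription factor genes MYC and MYCN. They were listed for their reported link to let-7, and each symbol matched 1 gene of the 57087 genes to which the deposited transcripts could be assigned. All 10 passed the filter on low counts and were tested in every comparison.

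let-7 miRNAs are cut from hairpin precursors by Drosha in the nucleus and by Dicer in the cytoplasm, and are then loaded into Argonaute proteins such as Ago2. Bases 2 to 8 of the miRNA, the seed, pair with matches that lie mostly in the 3′ untranslated region (UTR) of messenger RNAs, and the targets are translated less and decay faster. The family is scarce in embryonic cells and abundant in differentiated ones, its targets include many genes of embryonic and tumour growth, and LIN28 proteins block let-7 maturation, so that LIN28B and let-7 repress each other.

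The study examined small RNAs that depend on Dicer and act on RNA still held on chromatin, and so measured both messenger RNA (mRNA-seq) and chromatin-bound RNA (chrRNA-seq), which is rich in transcripts that are being made. In mRNA-seq, 3 wt samples of HEK293T cells were compared with 3 shDicer samples of HEK293 2B cells that carry a short hairpin RNA (shRNA) against DICER, both kept in doxycycline at 3 µg/ml for 7 days. In chrRNA-seq there were 2 samples each of wt, shDicer, shAgo2 and DroshaKD, all labelled as HEK293. The shDicer and shAgo2 cells there were inducible lines given doxycycline at 3 µg/ml for 72 hours to switch on an shRNA against DICER or AGO2, the DroshaKD cells were transfected with plasmids for an shRNA against DROSHA, and no treatment was labelled for wt. The study's methods describe the inducible lines as recombinant HEK293T-REx cells with an integrated cassette, and no line with a control hairpin is among these samples, so knockdown and line cannot be told apart. The mRNA-seq and chrRNA-seq samples also differ in time of induction and in library kit. The labels do not say whether replicates were separate cultures, so p-values measure the spread between these samples, which may be technical.

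Samples held 10216430 to 17215978 estimated counts in mRNA-seq and 17484067 to 21553760 in chrRNA-seq. A count of 3 in 1 sample, taken as the detection floor, equalled 0.179 to 0.307 CPM (counts scaled to a common library total) in mRNA-seq and 0.148 to 0.189 CPM in chrRNA-seq, which covers counting error only. DICER1 mRNA averaged 247 ± 13.5 CPM in wt and 87.8 ± 6.92 CPM in shDicer (SD, n = 3 each; edgeR adjusted p = 1.28e-07). On chromatin, DICER1 did not pass the test in shDicer (log2 fold change −0.17, adjusted p = 0.166) and was higher in shAgo2 (0.78, adjusted p = 3.59e-05), AGO2 fell by 0.62 on the log2 scale in shAgo2 (adjusted p = 9.29e-05), and DROSHA did not pass in DroshaKD (0.07, adjusted p = 0.697). The study also measured steady-state RNA of these genes by qRT-PCR in its chrRNA-seq samples, and reports successful knockdown of Dicer, Drosha and Ago2 by western blot. All 7 genes of a HEK293 list of epithelial and neuronal filament genes and the kidney factor PAX2 had a count in at least 1 sample of each experiment. PAX2 was too low to be tested in mRNA-seq. The 7 genes had summed levels of 460.4 to 542.3 CPM in wt mRNA and 839 to 1284 CPM in shDicer mRNA. On chromatin the sums were 622 to 684 CPM in wt against 397.9 to 547.7, 417 to 464 and 347 to 447 CPM in shDicer, shAgo2 and DroshaKD. Of the 7 genes, NEFL rose by 4.77 and NEFM fell by 3.94 on the log2 scale in shDicer mRNA. The cells compared thus differed beyond let-7 targets, and the part of such differences in the results was not tested. Summed fibroblast, leukocyte and hepatocyte markers stayed at or below 2.11, 1.02 and 0.267 CPM in mRNA-seq, with CD3E and TTR at 0. In chrRNA-seq they were 32.0 to 49.3, 3.26 to 10.5 and 3.29 to 4.74 CPM, none was at 0, and the leukocyte sum was lower in shDicer (3.26 to 3.87) and shAgo2 (4.52 to 4.53) than in wt (10.02 to 10.5). In such bulk samples, fewer cells that express a gene and less RNA per cell cannot be told apart.

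The human let-7 family in RefSeq (GRCh38.p14) has 9 distinct mature sequences of 22 bases, shown here with the seed in capitals because all 9 share it and the targets are defined by it.
hsa-let-7a-5p: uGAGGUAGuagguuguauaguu
hsa-let-7b-5p: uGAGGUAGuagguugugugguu
hsa-let-7c-5p: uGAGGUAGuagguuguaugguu
hsa-let-7d-5p: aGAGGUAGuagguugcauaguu
hsa-let-7e-5p: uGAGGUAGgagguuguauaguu
hsa-let-7f-5p: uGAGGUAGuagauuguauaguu
hsa-let-7g-5p: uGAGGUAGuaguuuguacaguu
hsa-let-7i-5p: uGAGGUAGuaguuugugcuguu
hsa-miR-98-5p: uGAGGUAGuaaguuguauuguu
All sequences held the seed GAGGUAG, and outside it they differed at few positions, so a match to the seed cannot tell which family member would pair with it. The let-7a sequence comes from 3 loci and let-7f from 2.

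Matches to the seed were searched on the transcribed strand of the 3′ UTR of 1 transcript per gene, as an 8mer (CTACCTCA), a 7mer-m8 (CTACCTC without the last A) or a 7mer-A1 (TACCTCA without the first C), each position being counted once. All 10 genes held at least 1 match, and 6 held an 8mer. Of 18657 protein-coding 3′ UTRs of at least 50 bases, 16.1% held any match and 3.80% an 8mer. The 10 genes were listed as let-7 targets, so their matches are not independent of how they were chosen. The sites shown are 1 per gene for 9 of the 10 genes, that of MYC not being shown, with the match in capitals and the bases before it in lower case, and they illustrate that the same letters recur in unrelated surroundings.
TRIM71, chr3:32891969-32891990, plus strand: acattgcttaagtcCTACCTCA
LIN28B, chr6:105078813-105078834, plus strand: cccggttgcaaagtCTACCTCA
HMGA2, chr12:65963299-65963320, plus strand: ccaacgttcgatttCTACCTCA
IGF2BP2, chr3:185644220-185644241, minus strand: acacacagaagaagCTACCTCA
IGF2BP1, chr17:49051062-49051083, plus strand: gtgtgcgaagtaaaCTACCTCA
IGF2BP3, chr7:23311795-23311816, minus strand: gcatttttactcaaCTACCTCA
HMGA1, chr6:34245830-34245850, plus strand: cctctgttcacaaaCTACCTC
ARID3B, chr15:74598102-74598122, plus strand: atttcaataaacctCTACCTC
MYCN, chr2:15946588-15946609, plus strand: taagtactgtaataaTACCTCA
Each lies in the 3′ UTR of its gene in GRCh38. TRIM71 held 8 matches in a 3′ UTR of 6013 bases, HMGA2 7 in 2999, and LIN28B, IGF2BP1 and ARID3B 5 each in 4549, 6701 and 2357. IGF2BP2 held 3 matches, MYCN 2, and HMGA1, IGF2BP3 and MYC 1 each. A match is more common in a long 3′ UTR, so like lengths were compared, in sets that include the gene itself. Of 978 3′ UTRs of a length like that of TRIM71, 46.4% held at least 1 match. The 0.102% that held as many as TRIM71 is TRIM71 itself, so no other did. Of those like MYC, 19.6% held at least its single match. A match is a run of letters and was not shown to be bound in these cells.

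The genes were first ordered by their level in wt cells, which were kept in doxycycline in mRNA-seq and had no labelled treatment in chrRNA-seq. Levels are in TPM, a relative abundance of transcripts corrected for their length, which is compared here only within a library type. In wt mRNA, LIN28B was the most abundant at 18.5 ± 1.01 TPM, and TRIM71 (0.716 ± 0.142 TPM) and MYCN (0.328 ± 0.0263 TPM) were the least (SD, n = 3 each). Between them, HMGA1 (10.8), IGF2BP3 (10.5), MYC (10.4), IGF2BP2 (8.77) and IGF2BP1 (8.11 TPM) formed a run in which the samples of each overlapped those of the next, followed by HMGA2 (7.02) and ARID3B (2.38 TPM), whose samples were apart from their neighbours'. In wt chromatin RNA the IGF2BP genes, which code for proteins that bind and stabilise mRNAs, led, with means of 92.8 TPM for IGF2BP3, 88.1 for IGF2BP1 and 64.1 for IGF2BP2. LIN28B was at 7.43 TPM there, below ARID3B (23.4), HMGA2 (12.0), MYC (10.2) and HMGA1 (9.64), of which the samples of MYC and HMGA1 overlapped, and TRIM71 (1.58) and MYCN (0.225 TPM) were again lowest.

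**Figure D1:**
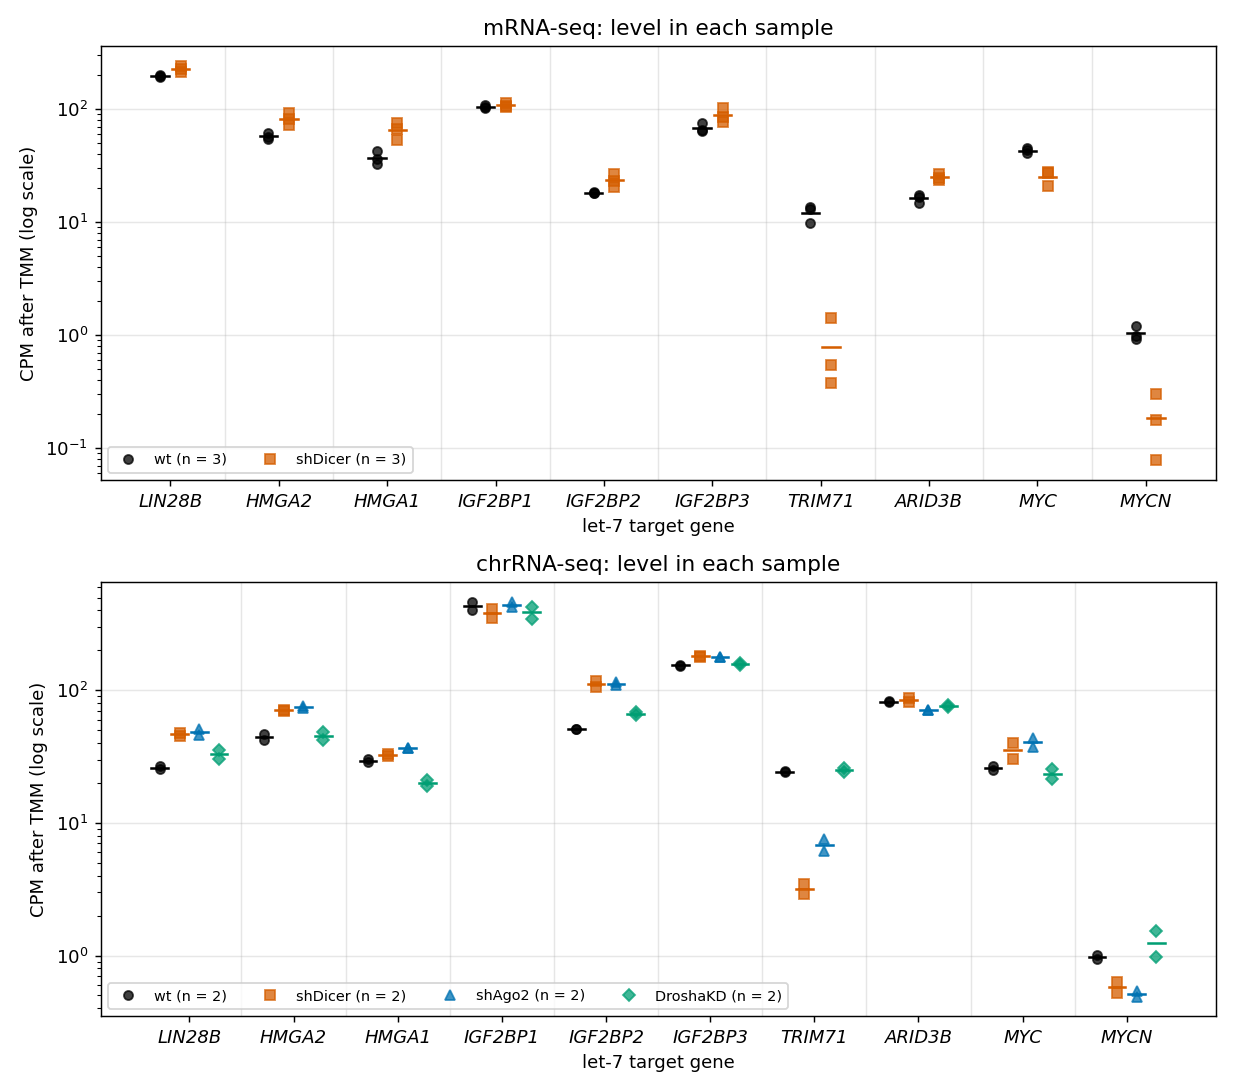
Level of each gene in every sample, in CPM after TMM scaling on a log axis, for mRNA-seq (top; wt and shDicer, 3 samples each) and chrRNA-seq (bottom; wt, shDicer, shAgo2 and DroshaKD, 2 samples each). Points are samples and bars are means. The shDicer samples of TRIM71 sit at 0.378 to 1.43 CPM in mRNA and at 2.91 to 3.47 CPM in chromatin RNA, below wt in both, and IGF2BP1 overlaps between wt and shDicer in both.

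The first comparison asked how the mRNA of the targets changed on loss of Dicer. HMGA2, HMGA1 and ARID3B rose in shDicer, TRIM71 and MYC fell, and the other 5 did not pass the test at an adjusted p under 0.001. The genes that rose did so 1.43- to 1.75-fold, and TRIM71 was 14.5-fold lower. The counts of 3 higher and 2 lower among 10 stand beside 15.6% of all 15090 tested genes called higher and 14.2% called lower, 29.8% in either direction. The median log2 fold change was 0.29 over the 10 genes and 0.01 over all genes tested.

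TRIM71, a ubiquitin ligase and mRNA repressor of embryonic cells, had the most let-7 matches and the largest change of the 10. Its mRNA was at 9.81, 13.1 and 13.6 CPM in the 3 wt samples (121, 147 and 133 counts) and at 0.548, 0.378 and 1.43 CPM in the 3 shDicer samples (7, 5 and 24 counts). All shDicer samples were far below all wt samples and near the detection floor. The log2 fold change was −3.86 ± 0.34 (SE; edgeR adjusted p = 3.96e-06), and it passed the test under all 8 other settings tried and without any 1 sample. Its size rested in part on shDicer replicate 3, the sample with 24 counts, without which it was −4.68.

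Among the chromatin proteins, HMGA2 and HMGA1 are architectural factors that bend AT-rich DNA. HMGA2 was at 56.7, 54.97 and 61.4 CPM in wt and at 73.1, 82.0 and 92.6 CPM in shDicer. HMGA1 was at 36.2, 32.6 and 42.6 CPM in wt and at 74.8, 53.6 and 66.2 CPM in shDicer. For both genes the shDicer samples all exceeded the wt samples, with a spread in shDicer wider than that in wt. The log2 fold changes were 0.52 ± 0.10 (adjusted p = 0.000883) and 0.81 ± 0.13 (adjusted p = 0.000413). HMGA2 lost the call without any sample other than shDicer replicate 1 (adjusted p up to 0.00749), with library size only (0.00202) and with counts scaled from TPM (0.00231). HMGA1 lost it without wt replicate 1, wt replicate 2 or shDicer replicate 3 (0.00501, 0.00273 and 0.00136) and with counts scaled from TPM (0.00123).

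ARID3B codes for a DNA-binding protein of the AT-rich interaction domain family. It was at 16.7, 17.5 and 14.8 CPM in wt and at 26.7, 24.7 and 23.6 CPM in shDicer, with the groups apart, and its log2 fold change was 0.61 ± 0.11 (adjusted p = 0.000926). The call was lost without any 1 sample (adjusted p 0.00138 to 0.00611), with the size factors of DESeq2 in edgeR (0.00105) and with counts scaled from TPM (0.023). The 50 tested genes nearest to ARID3B on its chromosome had a median of 0.56 in the same comparison, and relative to them ARID3B changed by 0.05 (adjusted p = 0.735). In addition, 21.4% of the 31-base sequences in its transcripts also occur in other genes, mainly the pseudogene ARID3BP1, as do 17.7% of those of HMGA1, 14.7% of those of IGF2BP2 and 10.75% of those of IGF2BP3, so that the division of reads between genes is uncertain for all 4.

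MYC, a transcription factor of cell growth, was at 40.6, 43.1 and 44.9 CPM in wt and at 27.6, 21.04 and 27.2 CPM in shDicer. All shDicer samples were below all wt samples (log2 fold change −0.76 ± 0.12, adjusted p = 0.000264). The call was lost without any 1 of the wt samples (0.00248, 0.00145 and 0.00172 without replicates 1, 2 and 3) and with counts scaled from TPM (0.00497), and the 50 neighbouring genes had a median of −0.39, against which MYC was at −0.37 (adjusted p = 0.0225). Its relative MYCN, best known from neuroblastoma, had 15, 11 and 9 counts in wt and 1, 4 and 3 counts in shDicer. The shDicer samples were the lower ones (−2.42 ± 0.47), with an adjusted p of 0.00119, just short of the threshold, that became 0.000257 when no filter on low counts was used.

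The remaining 4 genes all code for RNA-binding proteins. LIN28B was at 193, 202 and 196 CPM in wt and at 213, 242 and 225 CPM in shDicer, a log2 fold change of 0.21 ± 0.07 (adjusted p = 0.0273; 95% interval 0.07 to 0.34). IGF2BP3 was at 65.6, 63.9 and 75.7 CPM in wt and at 77.3, 85.3 and 101 CPM in shDicer (0.37 ± 0.11, adjusted p = 0.0139). IGF2BP2 was at 18.4, 18.2 and 18.0 CPM in wt and at 23.3, 20.6 and 26.7 CPM in shDicer (0.37 ± 0.12, adjusted p = 0.0229). For these 3 genes the groups did not overlap. Groups also lay apart in 48 further reported let-7 targets, for 14 upwards and 14 downwards. The share over all genes was not counted. The 50 tested genes nearest to IGF2BP2 had a median of 0.35 in the same comparison, near its own change. Those nearest to LIN28B and IGF2BP3 had medians of 0.05 and −0.04. None of LIN28B, IGF2BP3 and IGF2BP2 passed the test. IGF2BP3 passed it when no filter on low counts was used (3.83e-05). The TPM of IGF2BP2 went the other way, at 9.73, 8.17 and 8.41 in wt and 7.98, 3.61 and 7.25 in shDicer. TPM divides the counts by the length of the transcripts they were assigned to, and with counts scaled from TPM its log2 fold change was −0.19. IGF2BP1, with 5 matches, was at 103.8, 102.7 and 108.8 CPM in wt and at 103.97, 107.1 and 113.2 CPM in shDicer. Its groups overlapped, and the 95% interval of its log2 fold change ran from −0.09 to 0.18.

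The next comparison asked how the same genes changed in RNA held on chromatin when Dicer was depleted. LIN28B, HMGA2 and IGF2BP2 rose 1.59- to 2.18-fold and TRIM71 was 7.62-fold lower, at an adjusted p under 0.005, and 6 of the 10 did not pass. Among all 32874 genes tested, 11.0% were called higher, 10.5% lower and 21.6% in either direction. The median log2 fold change was 0.18 over the 10 genes and 0.01 over all genes tested.

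IGF2BP2 showed the largest rise of the 10. Its chromatin RNA was at 51.5 and 50.9 CPM in wt and at 106 and 117 CPM in shDicer, a log2 fold change of 1.13 ± 0.08 (adjusted p = 7.08e-07), with the limit on shared sequence given above. LIN28B was at 25.4 and 26.7 CPM in wt and at 45.0 and 48.0 CPM in shDicer (0.84 ± 0.10, adjusted p = 3.71e-05). HMGA2 was at 42.2 and 46.7 CPM in wt and at 70.8 and 70.4 CPM in shDicer (0.67 ± 0.09, adjusted p = 8.35e-05). In all 3 genes the shDicer pair was clearly above the wt pair, and the calls held under every other setting tried and without any 1 sample. TRIM71 was at 24.4 and 24.3 CPM in wt and at 3.47 and 2.91 CPM in shDicer, so it was low in the shDicer cells of both experiments (−2.93 ± 0.14, adjusted p = 2.44e-08).

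MYC chromatin RNA was at 24.9 and 27.0 CPM in wt and at 30.5 and 40.0 CPM in shDicer (0.44 ± 0.14, adjusted p = 0.0227), and IGF2BP3 at 153 and 156 CPM in wt and at 180 and 182 CPM in shDicer (0.23 ± 0.07, adjusted p = 0.0229). Both shDicer pairs were the higher ones. Among 48 further reported let-7 targets, the shDicer pair was above the wt pair in 19 and below it in 16. Neither MYC nor IGF2BP3 passed the test. MYC passed it without shDicer replicate 1 (0.00299), and IGF2BP3 relative to its 50 neighbouring genes (0.00212). HMGA1 (0.14 ± 0.09) and ARID3B (0.05 ± 0.07), which had risen as mRNA, did not pass on chromatin, with 95% intervals of −0.03 to 0.30 and −0.09 to 0.19. IGF2BP1 (−0.18 ± 0.12) overlapped between groups, and MYCN, with 16 and 16 counts in wt and 10 and 12 in shDicer, did not pass (−0.75 ± 0.39, adjusted p = 0.156).

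**Figure D2:**
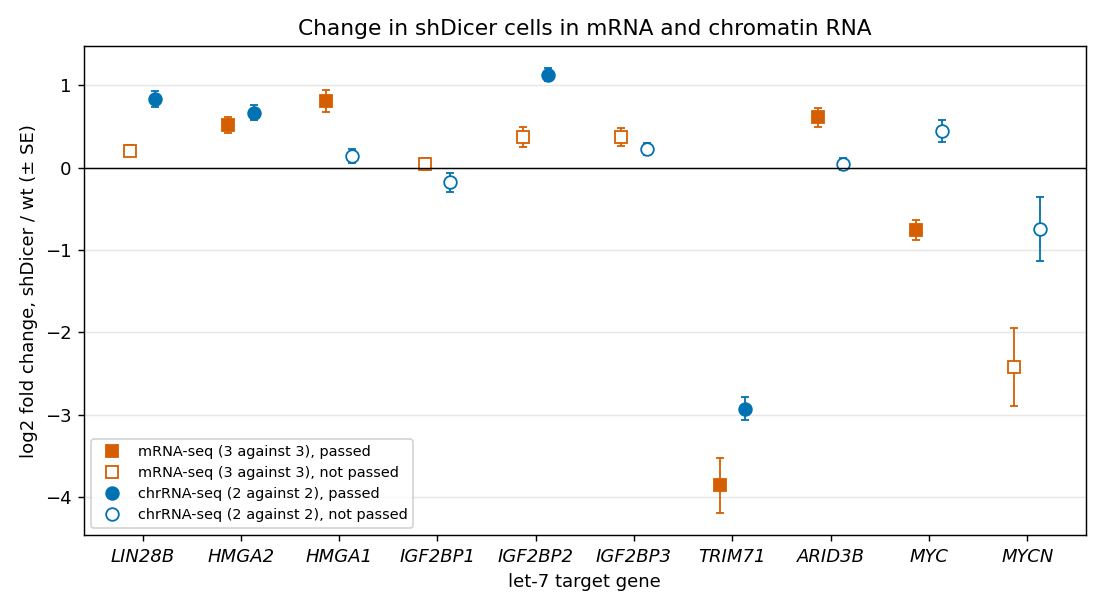
Log2 fold change of each gene in shDicer over wt, in mRNA-seq (squares, 3 samples against 3) and chrRNA-seq (circles, 2 against 2), with standard errors. Filled symbols passed the test (adjusted p under 0.001 in mRNA, 0.005 in chromatin RNA). TRIM71 lies lowest in both at −3.86 and −2.93, and MYC lies at −0.76 in mRNA and at 0.44 in chromatin RNA.

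The change in mRNA was then set against the change in chromatin RNA in 1 fit over both experiments, as the difference between the log2 fold changes. LIN28B and MYC passed at an adjusted p under 0.005, both with the mRNA change below the chromatin change. With edgeR, as with DESeq2, none of the 10 passed in the other direction. An unadjusted edgeR p under 0.05 was found for 7 of the 10 and for 23 of 48 further reported let-7 targets, in either direction. The share over all genes at that cut-off was not counted, so these counts do not show that the listed genes differ from other genes. At the adjusted threshold, 1.31% of all 31106 genes tested were called lower, 3.29% higher and 4.60% in either direction. These 406 lower and 1024 higher genes became 111 and 327 without wt replicate 1 of chrRNA-seq, and 218 to 338 and 517 to 715 without wt replicate 2 or either shDicer sample of chrRNA-seq, or wt replicate 1 or 2 of mRNA-seq. The median difference was −0.35 over the 10 genes and 0.06 over all genes. Since time of induction, cell labels and library kit differ between the experiments, the fraction of RNA and these factors cannot be told apart.

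For LIN28B, the mRNA of shDicer cells was 1.15-fold and the chromatin RNA 1.79-fold that of wt, and the difference was −0.59 ± 0.12 on the log2 scale (adjusted p = 0.00352). It lost the call without 8 of the 10 samples left out in turn, the exceptions being replicate 1 of shDicer in each experiment (adjusted p up to 0.0343, without chrRNA-seq wt replicate 1), and also without the filter on low counts (0.00718), relative to the neighbouring genes (0.00654) and with counts scaled from TPM, where it was −0.33 (0.153). For MYC, mRNA was 1.69-fold lower and chromatin RNA 1.36-fold higher, the difference being −1.16 ± 0.20 (adjusted p = 0.0011). It lost the call without wt replicate 1 (adjusted p = 0.0217) or shDicer replicate 2 (0.00781) of chrRNA-seq, without the filter (0.00873), with counts scaled from TPM (0.00524) and relative to the neighbouring genes, where it was −0.84 (0.0118). IGF2BP2 (−0.72 ± 0.15, adjusted p = 0.00591) was short of the threshold. It passed with DESeq2 (1.61e-05), with the size factors of DESeq2 in edgeR (0.00368), with library size only (0.00436), with the replicate block (0.00433), relative to the neighbouring genes (0.00402), and without shDicer replicate 1 (0.004) or 3 (0.000991) of mRNA-seq.

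HMGA1 (0.71 ± 0.20, adjusted p = 0.0252) and ARID3B (0.60 ± 0.15, adjusted p = 0.0147) had the 2 highest differences of the 10, without passing. HMGA2, which rose in both fractions, had a difference of −0.11 ± 0.14 that did not pass (adjusted p = 0.729; 95% interval −0.38 to 0.16). TRIM71 (−0.88 ± 0.40, adjusted p = 0.187) and MYCN (−1.66 ± 0.61, adjusted p = 0.0961) had wide errors and few counts in shDicer mRNA, and IGF2BP1 (0.26) and IGF2BP3 (0.18) did not pass.

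Depletion of Ago2 was compared with wt next. The same wt samples serve as control for all 3 knockdowns, so these comparisons are not independent of each other. In shAgo2, LIN28B, HMGA2, IGF2BP2 and MYC rose 1.56- to 2.20-fold and TRIM71 was 3.56-fold lower. Of all 32874 genes, 12.5% were called higher, 12.1% lower and 24.5% in either direction at the same threshold of 0.005. The median log2 fold change was 0.26 over the 10 genes and 0.0028 over all genes tested.

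IGF2BP2 was at 109 and 116 CPM in shAgo2 against 51.5 and 50.9 CPM in wt (log2 fold change 1.14 ± 0.08, adjusted p = 5.36e-07). LIN28B was at 46.2 and 50.7 CPM in shAgo2 (0.89 ± 0.10, adjusted p = 1.79e-05), and HMGA2 at 74.1 and 75.9 CPM (0.75 ± 0.09, adjusted p = 2.69e-05). These levels lie beside those in shDicer, and every shAgo2 sample was above every wt sample. MYC was at 37.5 and 43.8 CPM (0.65 ± 0.13, adjusted p = 0.00225), a call lost without wt replicate 1 (0.0316), wt replicate 2 (0.0136), shAgo2 replicate 1 (0.00583) or shAgo2 replicate 2 (0.0327). TRIM71 was at 6.15 and 7.59 CPM, below wt but above shDicer (−1.83 ± 0.12, adjusted p = 3.77e-07).

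Of the genes that did not pass in shAgo2, HMGA1 was at 36.5 and 36.8 CPM against 30.4 and 28.7 CPM in wt (0.31 ± 0.09, adjusted p = 0.0115, and 0.00274 with only the 2 groups in the fit), IGF2BP3 had a log2 fold change of 0.21 and ARID3B of −0.21. In ARID3B the shAgo2 pair was the lower one, at 71.2 and 70.5 CPM against 81.3 and 83.0 CPM. Among 48 further reported let-7 targets, the shAgo2 pair was above the wt pair in 24 and below it in 19. IGF2BP1 was at 0.03 with a 95% interval of −0.20 to 0.26, and MYCN had 11 and 9 counts against 16 and 16 (−0.91 ± 0.40).

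In DroshaKD, tested at an adjusted p under 0.05, IGF2BP2 rose and HMGA1 fell, and 8 of the 10 did not pass. Of all genes, 1.19% were called higher, 2.18% lower and 3.38% in either direction. These 392 higher and 718 lower genes became 26 and 46 without wt replicate 1, 32 and 58 without wt replicate 2, and 129 to 574 and 336 to 1163 without any other sample but DroshaKD replicate 2. IGF2BP2 was at 65.1 and 68.4 CPM against 51.5 and 50.9 CPM in wt (0.38 ± 0.08, adjusted p = 0.0267), a call lost without any 1 sample of wt (0.202 and 0.182), DroshaKD (0.0507 and 0.0774) or shAgo2 (0.0623 and 0.0654), the last of which enter through the shared estimate of spread, and with counts scaled from TPM (0.0686) or the replicate block (0.0572). HMGA1 was at 19.1 and 20.9 CPM against 30.4 and 28.7 CPM (−0.56 ± 0.09, adjusted p = 0.00863), and lost the call without either wt sample (0.117 and 0.0693). In both genes the pairs did not overlap. Among 48 further reported let-7 targets, the DroshaKD pair was above the wt pair in 17 and below it in 15, while 1 of the 48 was called.

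TRIM71 was at 25.8 and 24.3 CPM in DroshaKD, overlapping the 24.4 and 24.3 CPM of wt, with a 95% interval of its log2 fold change from −0.17 to 0.25. LIN28B was at 35.6 and 30.5 CPM (0.34 ± 0.10, adjusted p = 0.0851) and HMGA2 at 42.4 and 48.6 CPM (0.03 ± 0.09). The LIN28B pair was above wt and the HMGA2 pair overlapped it. LIN28B passed with library size only (0.0345) and without DroshaKD replicate 2 (0.0485). MYC (−0.16), IGF2BP1 (−0.16), ARID3B (−0.11), IGF2BP3 (0.03) and MYCN (0.35) did not pass either. The median log2 fold change of the 10 genes was 0.03.

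**Figure D3:**
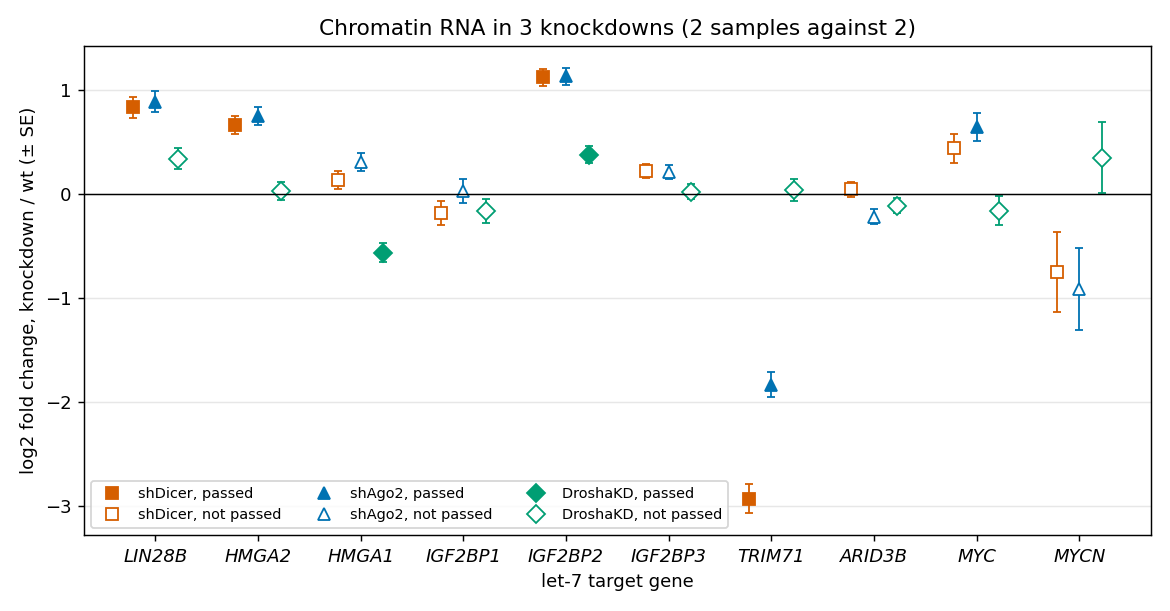
Log2 fold change of chromatin RNA over wt for each gene in shDicer (squares), shAgo2 (triangles) and DroshaKD (diamonds), 2 samples against 2 with the same wt samples in all 3, with standard errors. Filled symbols passed the test (adjusted p under 0.005 for shDicer and shAgo2, 0.05 for DroshaKD). LIN28B, HMGA2 and IGF2BP2 lie at 0.67 to 1.14 in shDicer and shAgo2, and TRIM71 at −2.93, −1.83 and 0.04.

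The knockdowns were also compared with each other at an adjusted p under 0.005. Between shDicer and shAgo2, 1 of the 10 genes differed: TRIM71 was lower in shDicer by a log2 fold change of −1.10 ± 0.16 (adjusted p = 0.00137), where 1.34% of all genes were called lower, 1.37% higher and 2.71% in either direction. It lost the call without shDicer replicate 2 (0.0103), shAgo2 replicate 1 (0.00576) or shAgo2 replicate 2 (0.0252), and with only the 2 groups in the fit (0.00509). The 450 genes called higher and 441 called lower over all genes became 36 to 56 and 71 to 73 without either shAgo2 sample, and 234 to 302 and 164 to 273 without either wt or shDicer sample. That the other 9 did not pass does not show that they were equal. Against DroshaKD, LIN28B, HMGA2, HMGA1, IGF2BP2 and MYC were higher and TRIM71 lower in shDicer, beside 11.0% of genes called higher, 9.51% lower and 20.5% in either direction. The same 5 were higher and TRIM71 lower in shAgo2 than in DroshaKD, beside 11.6%, 10.3% and 21.9%. In both comparisons with DroshaKD, the calls on HMGA2, HMGA1, IGF2BP2 and TRIM71 held under every other setting and without any 1 sample. The MYC call in shDicer held in 1 of the 8 fits that left out a sample, the one without shDicer replicate 1. It was lost in the other 7 (adjusted p 0.00572 to 0.0459, with a log2 fold change of 0.39 without shDicer replicate 2), with the size factors of DESeq2 in edgeR (0.00542), with counts scaled from TPM (0.0406), with the replicate block (0.00747) and with only the 2 groups (0.0137). The LIN28B call in shDicer was lost without shDicer replicate 2 (0.0106) or DroshaKD replicate 2 (0.0148), with counts scaled from TPM (0.0386) and with only the 2 groups (0.0086). In shAgo2, LIN28B and MYC lost their calls without shAgo2 replicate 2 (0.0133 and 0.0106) or DroshaKD replicate 2 (0.00713 and 0.00606) and with counts scaled from TPM (0.0265 and 0.0107), and LIN28B also relative to the neighbouring genes (0.00765). HMGA1 was low in DroshaKD, and its differences from wt in the other lines did not pass.

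Chromatin RNA holds transcripts that are not yet whole, and the counts were therefore split by whether the transcript they were assigned to carries a let-7 match. The files list 70 transcripts of the 10 genes, of which 61 had the same length in the annotation used here. Of all 70, 22 carried a match in that annotation. MYC was left out because the lengths of its transcripts differed. In mRNA-seq, matched transcripts took 92.3% to 100% of the counts of the other genes, with the exception of IGF2BP2 (74.8% to 79.8%). On chromatin the share was lower, with no overlap, for 6 genes, and lowest for HMGA2 and IGF2BP3, at 10.7% to 19.4% and 17.2% to 24.9%.

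HMGA2 is the clearest case. Its matched transcripts took 11.8% and 10.7% of its chromatin counts in wt, 12.3% and 16.0% in shDicer, 16.2% and 19.4% in shAgo2, and 10.8% and 11.3% in DroshaKD. The shares were highest in shAgo2, and those of shDicer were above wt as well. Both kinds of transcript rose: those with a match by 1.001 ± 0.17 on the log2 scale in shDicer (adjusted p = 0.000683) and 1.42 ± 0.17 in shAgo2 (3.33e-05), and those without one by 0.62 ± 0.09 (0.000183) and 0.64 ± 0.09 (0.000116). The difference between the 2 kinds was not tested.

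For LIN28B, matched transcripts took 73.6% and 72.4% of chromatin counts in wt, 80.7% and 79.8% in shDicer, 81.7% and 80.8% in shAgo2, and 76.3% and 73.6% in DroshaKD. The wt samples were below all shDicer and shAgo2 samples. Matched transcripts rose by 0.97 ± 0.10 in shDicer and 1.05 ± 0.10 in shAgo2 (adjusted p = 2.03e-05 and 9.06e-06). Those without a match had log2 fold changes of 0.38 ± 0.13 and 0.37 ± 0.13 that did not pass (edgeR adjusted p = 0.0404 and 0.0462). For IGF2BP2, transcripts without a match rose by 1.32 and 1.30 and those with one by 1.02 and 1.04. The difference between the 2 kinds was not tested in LIN28B or IGF2BP2, nor was that between the genes. The division of counts between transcripts of 1 gene is an estimate made by the authors' software and carries an error that is not in these values.

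**Figure D4:**
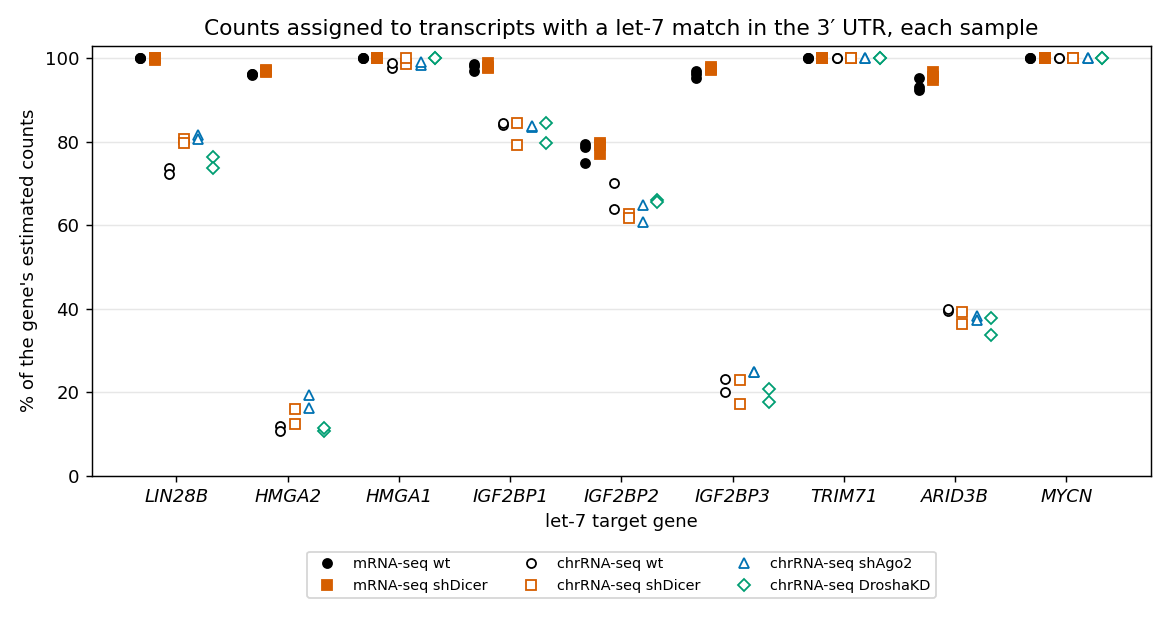
Share of each gene's estimated counts that was assigned to transcripts with a let-7 match in the 3′ UTR, in percent, for every sample of mRNA-seq (filled) and chrRNA-seq (open), by group. HMGA2 lies at 96.0% to 97.2% in mRNA and at 10.7% to 19.4% in chromatin RNA, whereas TRIM71 and MYCN lie at 100% throughout.

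To see whether genes with let-7 matches moved as a class, all tested protein-coding genes were grouped by the number of matches in the 3′ UTR. In shDicer mRNA the median log2 fold changes were 0.03 for 10144 genes with none, 0.01 for 1911 with 1, 0.01 for 350 with 2, and 0.02 for 108 with 3 or more. On chromatin the medians for none and for 3 or more were −0.04 and 0.05 in shDicer, −0.04 and 0.05 in shAgo2, and −0.03 and 0.05 in DroshaKD. Genes with 3 or more matches thus differed from those with none by −0.02 in mRNA and by 0.10, 0.09 and 0.08 in chromatin RNA. The number of matches moves with the length of the 3′ UTR, whose median was 1014 bases for none and 7092 for 3 or more in chrRNA-seq. Among the longest 3′ UTRs, the chromatin medians without and with a match were 0.01 and 0.03 in shDicer, 0.03 and 0.07 in shAgo2, and 0.01 and 0.03 in DroshaKD, and among those of middle length the medians with a match were the lower ones. For the change in mRNA against that in chromatin RNA, the median difference was 0.15 for genes with no match and −0.04 for 3 or more. Without and with a match, it was 0.25 and 0.29 among the shortest 3′ UTRs, 0.17 and 0.13 among those of middle length, and 0.05 and 0.03 among the longest. These are descriptions of medians, without a test.

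**Figure D5:**
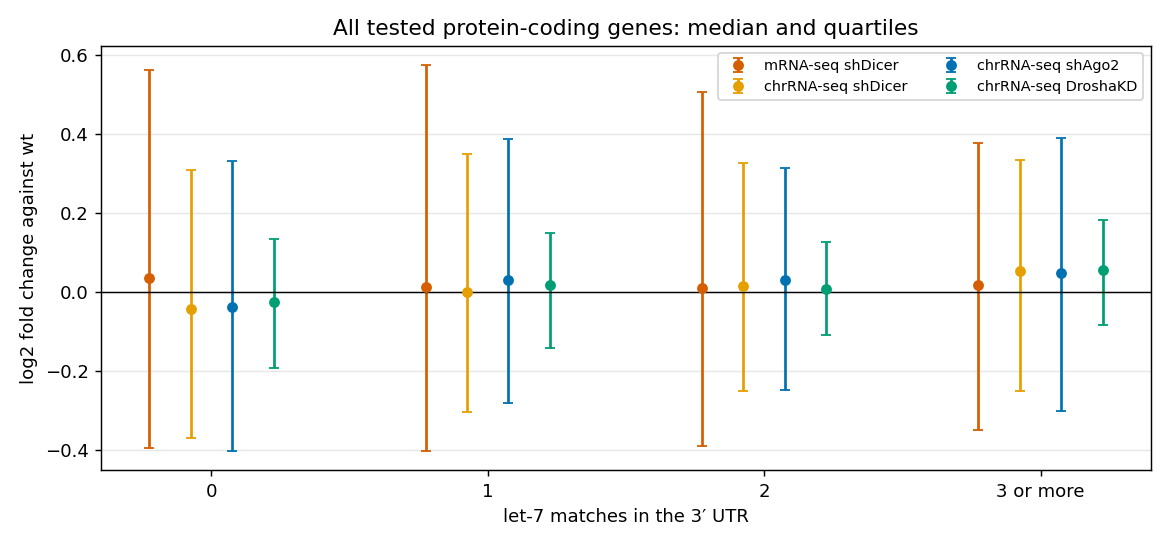
Median log2 fold change against wt of all tested protein-coding genes with 0, 1, 2 or 3 or more let-7 matches in the 3′ UTR, with bars from the lower to the upper quartile, for shDicer mRNA and for chromatin RNA of shDicer, shAgo2 and DroshaKD. The medians run from −0.04 to 0.05, inside every quartile range.

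Further reported let-7 targets, 48 genes listed by name, were taken as the wider pathway. In shDicer mRNA 44 were tested, of which 6 rose and 8 fell, beside 15.6% of all genes called higher and 14.2% lower, and their median log2 fold change was 0.09. These counts are near the shares over all genes. On chromatin all 48 were tested. In shDicer 7 rose and 10 fell, beside 11.0% and 10.5% of all genes (median −0.01), in shAgo2 9 rose and 9 fell, beside 12.5% and 12.1% (median 0.08), and in DroshaKD 1 rose, beside 1.19%. CCND1, which codes for cyclin D1, rose from 7.19 ± 1.83 to 79.8 ± 5.28 CPM as mRNA (log2 fold change 3.49 ± 0.15, adjusted p = 3.1e-08) and from 13.6 ± 0.607 CPM on chromatin to 65.7 ± 1.28 in shDicer and 63.9 ± 0.617 in shAgo2. CDK6, a kinase partner of cyclin D, rose on chromatin of shAgo2 (1.62 ± 0.09), and E2F2, a transcription factor of the cell cycle, as mRNA of shDicer (1.27 ± 0.16), while its relative E2F5 fell as mRNA (−1.05 ± 0.10) and on chromatin of shDicer (−0.77) and shAgo2 (−0.70). PRTG, a cell surface receptor of embryonic tissue, rose in shDicer by 1.69 as mRNA and 1.52 on chromatin. FIGNL2 (2.51 in shDicer) and PRDM1, a transcriptional repressor (2.20 in shAgo2), rose on chromatin from 0.456 and 0.638 CPM in wt. The other falls named by size were BZW1 (−0.98) and the transcription factor BACH1 (−0.77) as mRNA, HIC2 and COIL on chromatin of shDicer (−0.86 and −0.75), and HIC2 and BACH1 on chromatin of shAgo2 (−0.83 and −0.69), while BACH1 was the gene that rose in DroshaKD (0.34 ± 0.07, adjusted p = 0.0288). The 50 tested genes nearest to E2F2, E2F5 and BACH1 had medians of 0.62, −0.54 and −0.42 as mRNA. Those nearest to HIC2 had −0.46 and −0.45 on chromatin of shDicer and shAgo2. For CCND1 the neighbours went the other way, at −0.16 as mRNA and −0.51 and −0.66 on chromatin. In the comparison of mRNA with chromatin, CCND1 (1.252), NR6A1 (1.03) and E2F2 (0.92) were higher and MDM4 (−0.64) was lower, with 5 of 48 passing in all, beside 4.60% of all genes.

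Factors that act on let-7 precursors were looked at in the same way. KHSRP, a splicing regulator that aids let-7 maturation, fell on chromatin in all 3 knockdowns, with log2 fold changes of −0.86 (shDicer), −0.97 (shAgo2) and −0.84 for DroshaKD. TUT7, which adds uridines to precursors bound by LIN28 proteins, fell in shDicer (−1.01) and shAgo2 (−0.77), as did DIS3L2, the nuclease that degrades them (−0.41 and −0.49). TRIM25, a cofactor of the same step, rose in both (0.46 and 0.50), and HNRNPA1, LIN28A and TUT4 did not pass in any knockdown. Of the 7 genes, 1 was called higher and 3 lower in shDicer and in shAgo2, and 1 lower in DroshaKD. Over all genes, 11.0% and 10.5% were called higher and lower in shDicer, and 12.5% and 12.1% in shAgo2. In DroshaKD 2.18% were called lower. As mRNA, TUT7 (−0.45, adjusted p = 0.00147), DIS3L2 (−0.58, adjusted p = 0.00441) and KHSRP (−0.29, adjusted p = 0.00877) were lower in every shDicer sample without passing. Groups lay apart upwards for 1 of the 7 genes. In the 48 further reported let-7 targets they lay apart for 14 upwards and 14 downwards, and the share of such genes over all genes was not counted. LIN28A, the paralog of LIN28B, was too low to be tested as mRNA. In the comparison of mRNA with chromatin, 1 of the 7 was called higher and 0 lower, beside 3.29% and 1.31% of all genes. Among 6 genes that host let-7 hairpins, MIR99AHG, the long noncoding RNA that holds let-7c, rose in shDicer as mRNA (1.24 ± 0.16) and on chromatin of shDicer (2.37 ± 0.13), shAgo2 (2.23 ± 0.13) and DroshaKD (0.78 ± 0.14). WDR82, the host of let-7g, fell as mRNA (−0.87 ± 0.10) and on chromatin of shDicer (−0.51 ± 0.08) and shAgo2 (−0.49 ± 0.08). The 50 tested genes nearest to WDR82 had medians of −0.33 as mRNA and −0.46 and −0.50 on chromatin of shDicer and shAgo2. Those nearest to MIR99AHG had −0.43, 0.02 and −0.16. Of the 6 hosts, 1 was called higher and 1 lower on chromatin of shDicer and of shAgo2. In DroshaKD 1 was called higher, beside 1.19% of all genes. Of 5 tested as mRNA, 1 was called higher and 1 lower, beside 15.6% and 14.2%. The other 4 hosts, HUWE1, MIR100HG, MIRLET7BHG and SPACA6, did not pass in any of these comparisons, MIR100HG being too low for a test in mRNA-seq.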

How the data were processed

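Each of the 14 deposited files holds, per the file headers, estimated counts and TPM for 217082 transcripts of 1 sample, which the authors made with kallisto in strand-specific mode against Ensembl cDNA and ncRNA sequences. The submitters' processing notes also name Bowtie, DESeq2 and TopHat2. The labels call the mRNA-seq RNA polyadenylated, whereas the study's methods describe ribosomal RNA depletion. The 6 small RNA samples were not analysed here.

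Transcripts were matched to gene symbols without their version number (193697 matched, 93.4% to 94.8% of counts), and estimated counts were summed per gene and rounded to whole numbers. Genes were tested with edgeR 4.0.16 in R 4.3.3 (quasi-likelihood test, TMM scaling within each experiment, its default filter on low counts, Benjamini-Hochberg adjustment over all tested genes). All 8 chrRNA-seq samples shared 1 fit, and the comparison of mRNA with chromatin used the interaction of fraction and knockdown over 10 samples. Thresholds were those of the study's methods where given (0.001, 0.005 and 0.05). CPM values are after TMM scaling, and 95% intervals are 1.96 standard errors. Alternatives were DESeq2 1.42.0, its size factors, library size only, no filter, counts scaled from TPM, a replicate block, a fit of 2 groups, the median of 50 neighbouring genes as an offset, TMM over all 10 samples, merged 3′ UTRs, fewer site types and leaving out each sample; a block with crossed DroshaKD numbers, matched transcripts only and 8mers only were added after seeing the data. The edgeR and DESeq2 fits were tested on simulated data. Counts per gene do not separate unspliced RNA, since the index holds spliced transcripts.

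The genes and lists were chosen with earlier results of these data known. The text names all 10 members, the depleted genes, all let-7 processing and host genes, and of the wider list the 3 largest and 3 smallest log2 fold changes past the threshold. Matches, sequences and coordinates come from GRCh38, and 3′ UTRs from its GENCODE annotation, which is not the release the authors used.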

Additional observations from a re-analysis of the deposited data

Results flagged for a closer look

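Some genes were singled out because their change differed between knockdowns or between fractions by the test of the difference itself (edgeR adjusted p under 0.005, log2 scale). Against DroshaKD, chromatin RNA of shDicer cells was higher for LIN28B (0.49, adjusted p = 0.00151), HMGA2 (0.63, adjusted p = 0.000125), HMGA1 (0.70, adjusted p = 7.56e-05), IGF2BP2 (0.74, adjusted p = 1.84e-05) and MYC (0.60, adjusted p = 0.00457), and lower for TRIM71 (−2.97, adjusted p = 2.32e-08). The MYC call was lost without any 1 sample other than shDicer replicate 1 (adjusted p up to 0.0459, at 0.39 without shDicer replicate 2) and under 4 of 9 other settings, and the LIN28B call in 2 of 8 fits without 1 sample and under 2 of 9 other settings. The same 6 genes differed between shAgo2 and DroshaKD, at 0.55 for LIN28B (0.000657), 0.72 for HMGA2 (4.34e-05), 0.87 for HMGA1 (1.14e-05), 0.75 for IGF2BP2 (1.51e-05), 0.80 for MYC (0.000581) and −1.87 for TRIM71 (3.51e-07), where LIN28B and MYC each lost the call in 2 of 8 fits without 1 sample. The shDicer and shAgo2 samples come from inducible lines and the DroshaKD samples from transfected cells, so line and knockdown cannot be told apart, and both comparisons share the DroshaKD samples. TRIM71 also differed between shDicer and shAgo2 (−1.10, adjusted p = 0.00137). In the comparison of the change in mRNA with that in chromatin RNA, LIN28B (−0.59, adjusted p = 0.00352) and MYC (−1.16, adjusted p = 0.0011) stood out, with calls lost in 8 and 2 of 10 fits without 1 sample. No sample was tested for lying apart from its group, since no group holds more than 3.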

How the results depend on the processing

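The calls on TRIM71 in shDicer mRNA and on TRIM71, LIN28B, HMGA2 and IGF2BP2 in chromatin RNA of shDicer and shAgo2 held under every alternative that was run and without any 1 sample. Under other settings, 26 single-gene values lost a call, 15 gained one and 17 changed sign. Of counts called in the wider list, 38 moved by over 1.5 times. Of both kinds, 774 did none of these. The 17 that changed sign were, with counts scaled from TPM, IGF2BP1 and IGF2BP2 in shDicer mRNA (−0.018 and −0.19), MYC in DroshaKD (0.16), IGF2BP2 between shDicer and shAgo2 (0.26) and IGF2BP1 between shDicer and DroshaKD (0.014). With the median of the 50 neighbouring genes as an offset they were ARID3B in chromatin RNA of shDicer (−0.11), IGF2BP1 in shAgo2 (−0.065), HMGA2 and IGF2BP3 in DroshaKD (−0.036 and −0.056), LIN28B, HMGA1 and IGF2BP1 between shDicer and shAgo2 (0.10, 0.14 and 0.0022), IGF2BP1 and ARID3B between shDicer and DroshaKD (0.048 and −0.092), and HMGA2 in mRNA against chromatin (0.25). With counts of matched transcripts only, chosen after seeing the data, they were ARID3B in chromatin RNA of shDicer (−0.025) and IGF2BP3 in DroshaKD (−0.14). None of these 17 had passed the test, and the cause was not tested. Leaving out 1 sample at a time changed a sign for ARID3B in chromatin RNA of shDicer (−0.0031 to 0.10), IGF2BP1 in shAgo2 (−0.073 to 0.14), HMGA2 (−0.069 to 0.13), TRIM71 (−0.0020 to 0.083) and MYCN (−0.012 to 0.64) in DroshaKD, LIN28B (−0.12 to 0.016) and IGF2BP2 (−0.082 to 0.061) between shDicer and shAgo2, and IGF2BP1 between shDicer and DroshaKD (−0.16 to 0.14).

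The number of the 10 genes called higher in shDicer mRNA, 3, became 0 with counts scaled from TPM and 0 to 2 without 1 sample, and the number called lower, 2, became 1 with counts scaled from TPM, with the neighbour offset and with matched transcripts only (MYC was not counted there), and 1 to 2 without 1 sample. In DroshaKD the 1 called higher became 2 with library size only, 0 with counts scaled from TPM and 0 to 1 without 1 sample, and the 1 called lower 0 to 1 without 1 sample. Between shDicer and shAgo2 the 1 called lower became 0 with only the 2 groups in the fit and 0 to 1 without 1 sample. Against DroshaKD, the 5 called higher in shDicer became 3 with counts scaled from TPM or only the 2 groups, and 3 to 5 without 1 sample, and the 5 in shAgo2 became 3 with counts scaled from TPM and 3 to 5 without 1 sample. In mRNA against chromatin the 2 called lower became 0 without the filter on low counts and with counts scaled from TPM, 1 with matched transcripts only, and 0 to 2 without 1 sample; with the neighbour offset it was 1, IGF2BP2, while LIN28B and MYC lost their calls. A search for 8mers only left 6 genes with 3 or more matches in mRNA-seq, with a median of −0.012, and 9 in chrRNA-seq, with medians of −0.00028, 0.033 and −0.078 in shDicer, shAgo2 and DroshaKD.

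Over all genes, the counts called higher and lower that differed from the reported ones by over 1.5 times, other than without 1 sample, were as follows. In shDicer mRNA, 2347 and 2145 became 3747 and 2817 without the filter. In DroshaKD, 392 and 718 became 254 and 741 with DESeq2, 768 and 527 with library size only (59.3% higher, against 35.3%), 520 and 1120 without the filter, and 141 and 207 with counts scaled from TPM. Between shDicer and shAgo2, 450 and 441 became 752 and 662 without the filter, 196 and 194 with counts scaled from TPM and 198 and 222 with the neighbour offset, which also gave 2894 and 2211 in place of 3630 and 3466 for shDicer, 3312 and 2599 in place of 4098 and 3971 for shAgo2, and 3056 and 2106 in place of 3804 and 3399 for shAgo2 against DroshaKD. For shDicer against DroshaKD, 3608 and 3126 became 2507 and 1687 with only the 2 groups. In mRNA against chromatin, 1024 and 406 (71.6% higher) became 1104 and 1107 with DESeq2 (49.9%), 750 and 505 with library size only (59.8%), 540 and 207 without the filter, and 350 and 179 with counts scaled from TPM.

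Leaving out 1 sample also moved them by over 1.5 times (given above for DroshaKD, shDicer against shAgo2 and mRNA against chromatin). In shDicer mRNA they became 1436 and 1289 without wt replicate 1. On chromatin they became 2017 to 2101 and 1826 to 1829 in shDicer without either wt sample, and 2341 to 2682 and 2004 to 2324 in shAgo2 without either wt or shAgo2 sample. For shAgo2 against DroshaKD they became 2199 to 2365 and 1489 to 1616 without either shAgo2 sample.

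Groups share replicate numbers in the labels, but same-numbered samples did not deviate together beyond a correlation of 0.1 (mean 0.0642 and lowest 0.0455 in mRNA-seq, −0.131 to 0.0279 in chrRNA-seq), so they were not taken as pairs. With the replicate number as a block, 0 of the 10 genes in place of 1 were called higher in DroshaKD, and over all genes 137 and 315 in DroshaKD and 200 and 213 between shDicer and shAgo2. With the DroshaKD numbers crossed (also chosen later), the block gave 2 of the 10 genes higher in DroshaKD, and over all genes 1149 and 1962 there and 961 and 970 between shDicer and shAgo2.

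Depth limited TRIM71 and MYCN in shDicer mRNA, with 5 to 24 and 1 to 4 counts, and 2 samples a group limited all chromatin comparisons.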
